A study of Drosophila melanogaster with 3 samples.

Results

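Cuticle protein genes code for the structural proteins of the insect exoskeleton, and they were examined here for binding of Myc, the growth-regulating transcription factor of the gene diminutive (dm), in whole Drosophila melanogaster embryos. The genes were taken from the Ensembl BDGP6 annotation as all protein-coding genes whose symbols start with Cpr, Lcp, Pcp, Ccp, Acp65A, Edg or Twdl, which gave 123 of 13945 protein-coding genes. The rule applies to symbols and takes no measured value, and it was drawn up with earlier results of these data known. The names took in 1 gene that does not belong, Cpr (FBgn0015623), which codes for NADPH-cytochrome P450 reductase, a membrane enzyme that passes electrons to P450 enzymes. The other 122 are called the cuticle protein genes, and the remaining 13822 protein-coding genes are called the other genes.

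The cuticle is a layered coat of chitin fibres and proteins that epidermal cells secrete at their outer face, anew at each moult. Most of its proteins carry a chitin-binding domain, the Rebers and Riddiford consensus, and form the CPR family. The Tweedle proteins (Twdl) form a separate insect family that shapes the body. The genes are short, lie in tandem runs of near copies, and are switched on for brief periods by ecdysone-responsive regulators. Myc binds DNA together with its partner Max, prefers the E-box CACGTG, and is known for driving genes of growth and ribosome production.

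Chromatin immunoprecipitation followed by sequencing (ChIP-seq) was done in 3 biological replicates that form 1 group: embryos of both sexes, aged from egg laying up to 16 h, of a line with a stable transgene for Myc tagged at its C terminus with green fluorescent protein. The labels do not name the promoter that drives the transgene, and the antibody recognised the tag. There is no second condition, so genes are compared with genes and replicates with each other. In whole embryos, binding in a few cells and weak binding in many cells cannot be told apart.

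The strict list, thresholded by the irreproducible discovery rate (IDR, a measure of how alike replicates rank their peaks), held 4371 peaks on the dm6 genome, and the relaxed list of the pooled replicates held 24667. The relaxed lists of replicates 1, 2 and 3 held 29853, 26058 and 25842 peaks, and such lists keep many weak peaks on purpose. Signal is the authors' peak score, which ran from 33.1 to 2067 in the relaxed pooled list with a median of 51.3. The weakest peak of the strict list had a signal of 110, and the other 20296 relaxed pooled peaks all lay below it. The strict list was thus the relaxed pooled peaks of highest signal. A gene without a strict peak could therefore only have weaker ones. The lists hold no read counts, so the depth of the libraries is unknown.

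The cuticle protein genes were largely without reproducible Myc peaks at their starts. A strict summit within 500 bp of an annotated start was found at 2 of the 123 genes named by the rule, Lcp9 and Cpr, where 26% of all protein-coding genes had one. Without Cpr the count was 1 of 122, a share of 0.820% (95% Wilson interval 0.145% to 4.50%). The other genes stood at 3617 of 13822, or 26.2% (25.4% to 26.9%). No gene of the Cpr-named family (70 genes without the reductase), the Ccp84A group (7), the Tweedle family (25), the Edg genes (3), or the pair Pcp and Acp65Aa had a strict peak, and of the 15 Lcp genes Lcp9 had 1. The cytosolic ribosomal protein genes, a textbook target class of Myc, stood at 84 of 92 in the same list. The same picture held in the replicates: in the strongest 4371 peaks of each replicate list, 1 cuticle protein gene had a promoter peak in every replicate (SD 0, n = 3), beside 25.4% ± 1.11 of the other genes (SD, n = 3).

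The relaxed pooled list put a summit in the promoter of 17 of the 123 genes, where 54% of all protein-coding genes had one. Without Cpr it was 16 of 122, or 13.1% (8.24% to 20.2%), beside 54.3% (53.5% to 55.2%) of the other genes. The relaxed lists of replicates 1, 2 and 3 gave 24, 20 and 26 of the 123 genes, beside 56.2%, 53.5% and 52.8% of all protein-coding genes. As a share of the cuticle protein genes this was 18.3% ± 2.50 (SD, n = 3), and of the other genes 54.5% ± 1.81, so the groups were apart by far more than the spread between replicates. Keeping only pooled peaks with a summit within 100 bp in both other replicate lists, 5 genes remained of the 17 without replicate 1, 5 without replicate 2 and 6 without replicate 3. Under the same filter the other genes fell from 54.3% to 37.0%, 39.2% and 39.2%. In all, 7 of the 123 had a promoter peak in all 3 replicate lists, where 42.4% of all protein-coding genes did. Of the 122, 73 had a peak in no replicate list and 37 in a single one, and the other genes were at 32.8% and 13.8% for these classes.

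**Figure D1:**
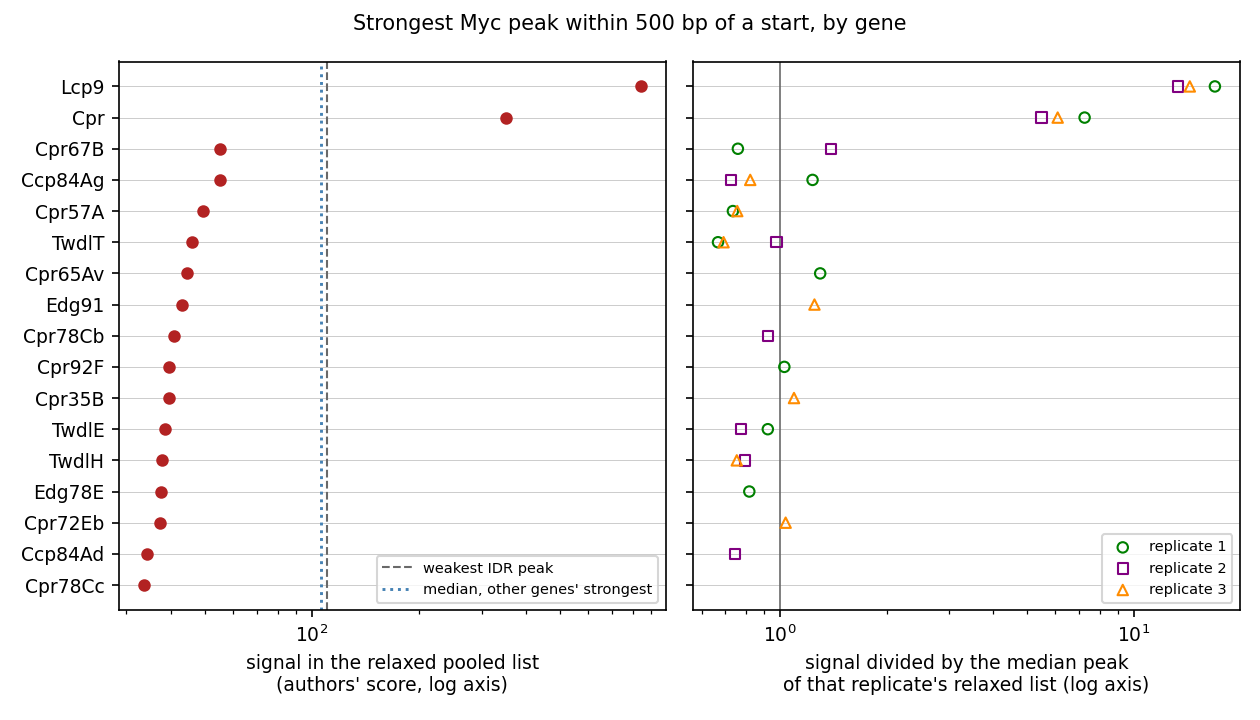
Signal of the strongest relaxed pooled peak within 500 bp of a start (left, log axis) for the 17 genes with one, and, for summits found within 100 bp in a replicate, the signal divided by that replicate's median peak (right, log axis). Lcp9 and Cpr stand apart at 842 and 352, and the other 15 genes lie between 33.6 and 55.0. Having no strict peak, these 15 lie below the weakest peak of the strict list by definition.

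The strongest of these peaks was at Lcp9 (FBgn0025578), a larval cuticle protein gene that lies on the minus strand of arm 2R at 24779979 to 24780428. The peak covered 24780738 to 24781037 with its summit at 24780893, in the intergenic stretch upstream, 465 bp from the start of Lcp9. Its pooled signal was 842, the 79th highest of 24667. In replicates 1, 2 and 3 the signal was 335, 232 and 263, which ranked 66th, 91st and 112th in those lists, so the peak was near the top in every replicate. The start of the next gene, CG3594, lay nearer, 24 bp from the summit. The 101 bases around the summit held CACGTG.

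The reductase gene Cpr (arm 2L, 6338836 to 6346280, plus strand) had 3 strict peaks at its alternative starts. The strongest had its summit at 6343666, 33 bp before an internal start, with a signal of 352 pooled and 143, 95.3 and 111 in replicates 1, 2 and 3. The others had signals of 132, at a summit 47 bp before the outermost start and 118 bp from the start of Pez, and 127, at a summit 376 bp before another start. None of the 3 summits held CACGTG within 50 bp. All 3 were found in every replicate.

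The other 15 relaxed pooled peaks were weak. Their signals ran from 33.6 to 55.0 with a median of 39.5, and ranked between 11162nd and 24072nd of 24667; 2 of the 15 were above the list's median. The strongest promoter peak of an other gene had a median signal of 106 (interquartile range 61.3 to 193). That value includes strict peaks, which the 15 lack by definition. All relaxed pooled peaks below the weakest strict peak, in promoters or elsewhere, had a median of 46.1 (interquartile range 38.1 to 62.0). The interquartile range of the 15 was 37.8 to 45.3. With Lcp9 added, the median of the 16 cuticle protein genes was 40.2. Cpr67B, with a summit 149 bp before its start, had the highest signal, 54.99, and Ccp84Ag, of the 84A run, was next at 54.95 with its summit 209 bp before its start. Edg91 and Edg78E, named as ecdysone-dependent genes, had pooled signals of 42.9 and 37.7, and the Tweedle gene TwdlT had 45.99. Cpr57A had 49.2, and its start and that of Obp57d, an odorant-binding protein gene, were equally far from the summit, 263 bp. The remaining 9, Cpr65Av, Cpr78Cb, Cpr92F, Cpr35B, TwdlE, TwdlH, Cpr72Eb, Ccp84Ad and Cpr78Cc, lay between 33.6 and 44.6.

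No neighbouring start of a protein-coding gene was nearer than the member's own at these 15 summits. The summits were not gathered at the starts: their median distance was 263 bp, against 108 bp for the strongest promoter peaks of the other genes, and 4 of 15 lay within 100 bp, against 47.9% of the others. There were 10 downstream of the start and 5 upstream, and of the others 35.0% lay downstream. The values of the other genes include strict peaks and those of the 15 do not, so the sets are not alike in signal. In the replicate lists, a summit within 100 bp was found for 1 of the 15 in no replicate, for 8 in 1, for 4 in 2, and for 2, Ccp84Ag and TwdlT, in all 3. In replicates 1, 2 and 3 the signal of Ccp84Ag was 24.4, 12.6 and 15.01 and that of TwdlT was 13.2, 17.0 and 12.6. The signal of Cpr67B was 15.0045 and 24.2 in replicates 1 and 2, with no summit in replicate 3. Edg78E had a summit in replicate 1 alone (16.2) and Edg91 in replicate 3 alone (22.8). TwdlN had a promoter peak in all 3 replicate lists (14.7, 12.4 and 13.9) and none in the pooled list; its summits lay at 227, -464 and 336 bp from the start (negative values are upstream), so they did not coincide. Of the 20296 relaxed pooled peaks below the weakest strict peak, 16.4% had a summit within 100 bp in all 3 lists.

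The same can be seen without a window. The density of relaxed summits was counted in bands of distance from the outermost start, in each replicate. At the other genes it fell from 133 ± 8.28 summits per 100 kb (SD, n = 3) in the first 100 bp to 28.8 ± 3.01 at 2000 to 5000 bp. At the cuticle protein genes it was 20.6 ± 7.13 in the first 100 bp, 20.04 ± 5.69 at 100 to 250 bp and 18.0 ± 3.67 at 2000 to 5000 bp, beside 20.4 ± 1.69 over the main arms. The first band did not differ from the last by more than the spread between replicates. It held 6, 3 and 6 summits in replicates 1, 2 and 3, too few to show a moderate rise. In the strict list the first 100 bp held 0 summits at the cuticle protein genes and 67.2 per 100 kb at the others.

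**Figure D2:**
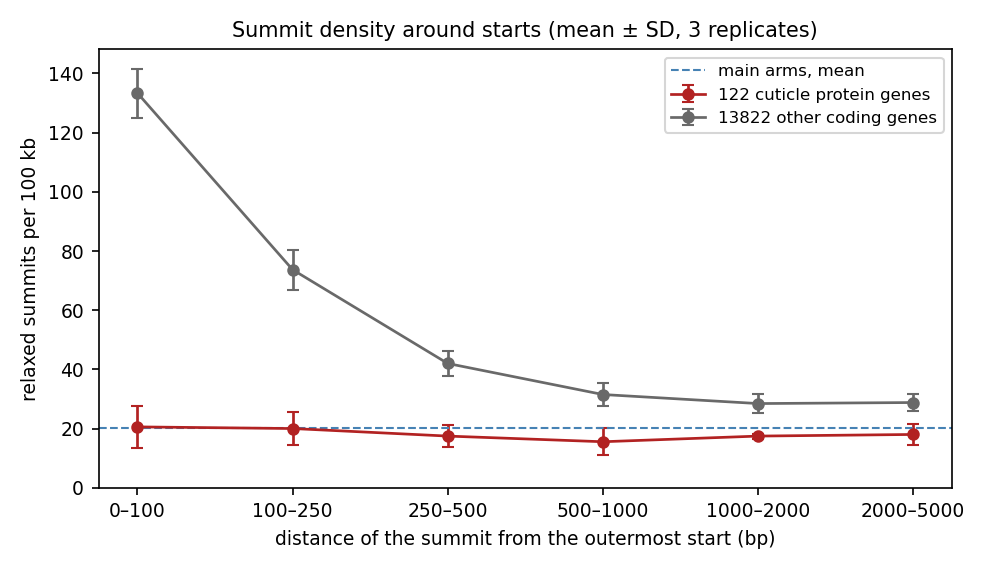
Relaxed summits per 100 kb by distance from the outermost start in bp (mean ± SD over 3 replicates), for the 122 cuticle protein genes and the 13822 other coding genes, with the mean over the main arms dashed. The density rises towards the start at the other genes, to 133 in the first 100 bp, and lies between 15.6 and 20.6 in all bands at the cuticle protein genes.

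By the median, the nearest strict summit lay farther off than at the other genes. The median distance from a start to it was 20475 bp for the cuticle protein genes and 5823 bp for the other genes. With the strongest 4371 peaks of each replicate in place of the strict list it was 19333, 25413 and 20003 bp (mean 21583 ± 3334, SD, n = 3). In the same lists the medians of the other genes were 5764, 6394 and 5922 bp. Within 2000 bp lay a strict summit for 2 of 122 (1.64%) against 33.5% of the other genes. By family the medians were 15161 bp for the 70 Cpr-named genes, 19996 bp for the 15 Lcp genes, 35327 bp for the 7 Ccp84A genes and 63056 bp for the 25 Tweedle genes. Among genes of known stage or class, Acp65Aa lay 21056 bp from the nearest strict summit, Edg84A 27040 bp, Cpr49Ae 28820 bp, Lcp1 31356 bp and Edg91 69380 bp.

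**Figure D3:**
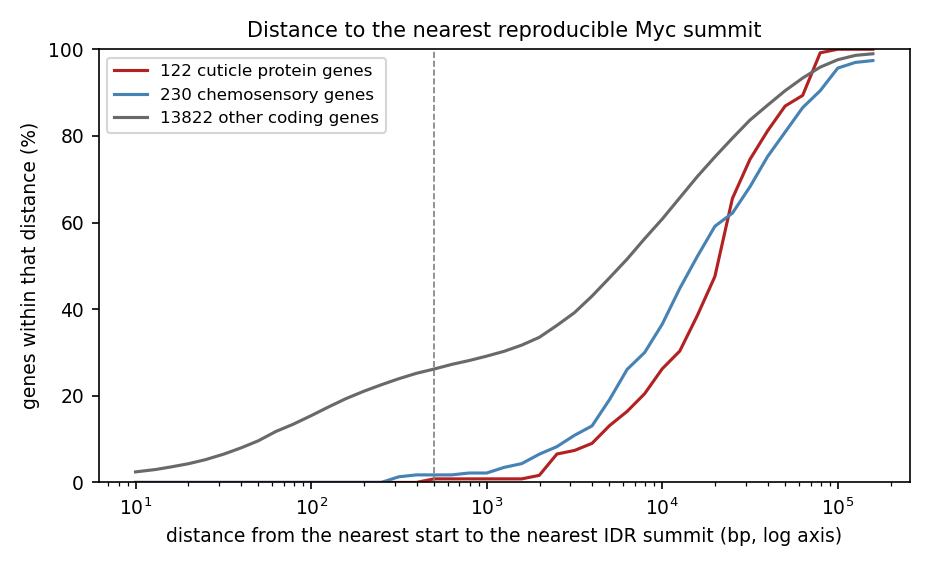
Share of genes (%) whose nearest strict summit lies within a given distance (bp, log axis), for the cuticle protein genes, the 230 chemosensory genes and the other coding genes. At 500 bp (dashed) the other genes have reached 26.2% and the cuticle protein genes 0.820%.

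Of the 5 cuticle protein genes without a strict promoter peak that lay nearest to a strict summit, 3 had another gene's start nearer to it: Cpr73D, Cpr57A and Pcp. At Cpr76Ba and Cpr65Eb the own start was the nearest. The distances were smallest for Cpr76Ba (1614 bp, signal 248, in an intergenic stretch, with its own start nearest), Cpr73D (2006 bp, 126) and Cpr57A (2034 bp, 186). The summit near Cpr73D lay 81 bp from the start of Ogdh, a subunit gene of the 2-oxoglutarate dehydrogenase of the citric acid cycle, and that near Cpr57A 61 bp from CG13430. Pcp (FBgn0003046), the pupal cuticle protein gene, lies inside an intron of Gart, which codes for a purine synthesis enzyme. The strict summit with signal 247 lay 2133 bp from the start of Pcp and 83 bp from that of Gart, and no list put a summit in the promoter of Pcp. The summit of signal 204 at 2331 bp from Cpr67B lay 6 bp from the start of eIF4E1, the gene of a cap-binding translation initiation factor. Edg78E lay 6764 bp from a summit of signal 744 at the start of CG11309.

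Of the 107 nearest non-member coding genes, 13 had a strict promoter peak (12.1%, 7.24% to 19.7%), and 41 a relaxed one (38.3%, 29.7% to 47.8%, beside 54% of all protein-coding genes). Strict peaks in this group had signals of 842 at CG3594, 744 at CG11309, 551 at amon, 369 at goe and 325 at pzg. These genes, amon, goe and pzg among them, lie up to 20569 bp from the member they neighbour. The neighbours' share lay between those of the cuticle protein genes (0.820%) and of all protein-coding genes (26%), and the differences were not tested.

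Most of the genes lie in runs. With starts of neighbouring members at most 20 kb apart, 15 clusters of at least 3 genes held 88 of the 122 genes in 258 kb. The largest, from Lcp65Ag3 to Cpr65Az on 3L, held 18 genes in 32.2 kb, and the next, from TwdlM to TwdlD on 3R, held 12 in 22.9 kb. Just 1 cluster, Cpr65Ea to Cpr65Ec, held a strict summit, with a signal of 125 at 2201 bp from the start of Cpr65Eb, in an intergenic stretch (3L, 7090763 to 7091212). Requiring that summit in the top lists of both other replicates, it was lost when replicate 1 or replicate 3 was left out, and 0 clusters then held one. In the full strict list, this 1 summit gave a density of 0.387 per 100 kb in the clusters, against 3.26 on the main arms. The other 14 clusters held none, among them Cpr49Aa to Cpr49Ah, Edg84A to Ccp84Aa, and Cpr47Ea to Cpr47Eg. At the cluster Cpr76Ba to Cpr76Bd, the strict summit of signal 248 lay just 334 bp outside the span.

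Relaxed pooled summits were found in 12 of the 15 clusters, 33 in all. The 3 without were Lcp1 to Lcp4, Cpr67Fa1 to Cpr67Fb, and TwdlF to TwdlV. The density was 12.8 per 100 kb in the clusters against 18.4 on the arms, and over the replicates 16.01 ± 1.83 against 20.4 ± 1.69 (SD, n = 3), and it was lower in the clusters in each of the 3. Of the 33 summits, 28 had a cluster member's start nearest and 5 another gene's. The highest relaxed signal besides the strict one was 109, in the Cpr47Ea to Cpr47Eg cluster, 616 bp from the start of TpnC47D, a troponin C gene. Coding exons held 15 of the 33 (45.5%), where they cover 26.4% of the clusters' bases; over the arms the shares were 17.3% and 17.1%. The stretches free of strict summits around the 14 clusters without one were 18.5 to 211 kb long with a median of 60.9 kb, beside a base-weighted median of 85.7 kb for the arms.

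**Figure D4:**
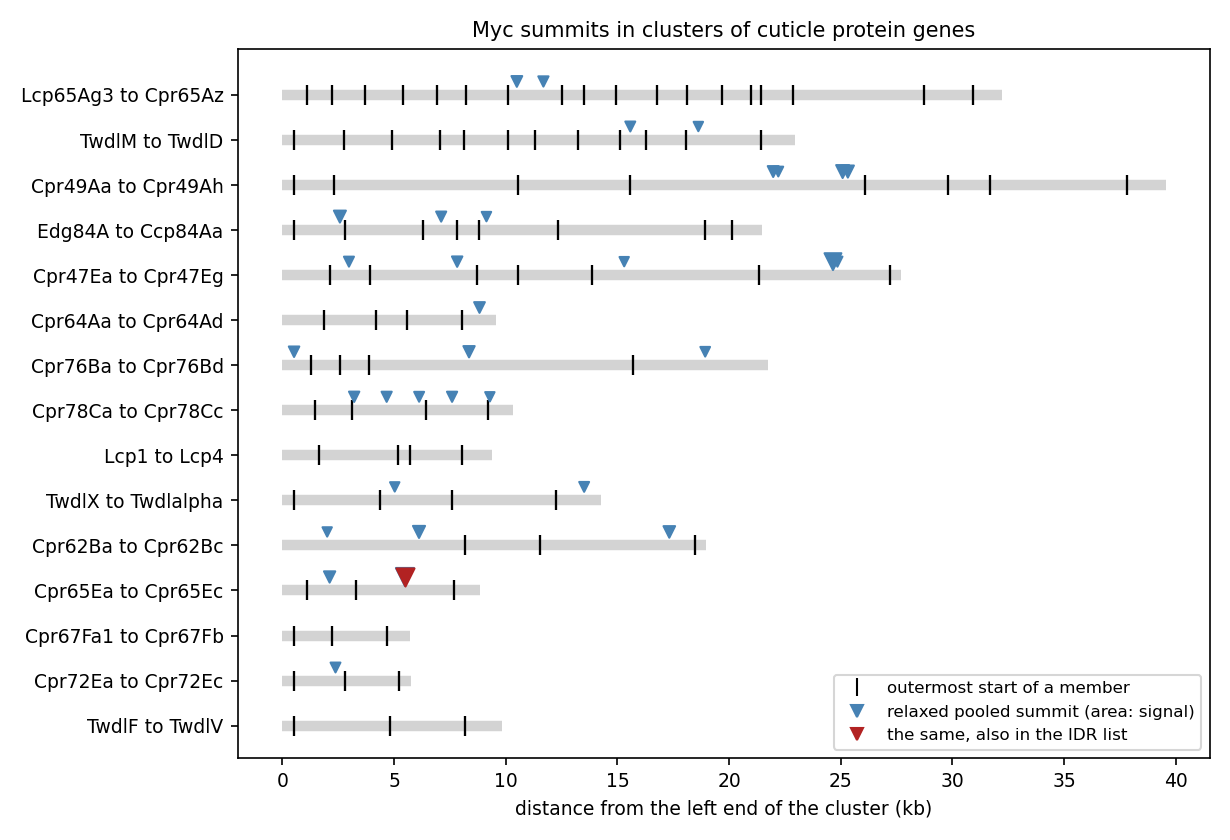
Map of the 15 clusters (1 line each, kb from the left end), with the outermost start of each member as a tick and Myc summits of the relaxed pooled list as triangles, whose area follows the signal. The single summit that is also in the strict list, in Cpr65Ea to Cpr65Ec, is red, and 3 clusters have no summit.

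The promoters of these genes have a common feature in their sequence, a TATA box at its usual place. The word TATAAA on the coding strand, starting 45 to 20 bases before the outermost start, was found at 75 of the 122 genes (61.5%, 52.6% to 69.6%) and at 8.35% of the other genes. Only this exact word was counted, so a start with a close variant, such as TATATAAG at Ccp84Ad, counts as lacking it. The starts of the genes of the cluster from Edg84A to Ccp84Aa, neighbours in this run, are shown here as an example, since 6 of its 8 genes carry the word in place. They run from 60 bases before the start to 5 bases into the transcript on dm6, with TATAAA in capitals where it lies in place.
Edg84A, chr3R:6684385-6684449, + strand: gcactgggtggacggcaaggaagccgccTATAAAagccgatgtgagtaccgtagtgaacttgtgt
Ccp84Ag, chr3R:6686668-6686732, + strand: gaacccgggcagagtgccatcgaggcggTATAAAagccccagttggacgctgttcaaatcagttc
Ccp84Ae, chr3R:6691754-6691818, - strand: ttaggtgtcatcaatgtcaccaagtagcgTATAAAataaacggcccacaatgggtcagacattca
Ccp84Ac, chr3R:6696267-6696331, - strand: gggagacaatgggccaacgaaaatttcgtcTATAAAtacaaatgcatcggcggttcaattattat
Ccp84Ab, chr3R:6702873-6702937, - strand: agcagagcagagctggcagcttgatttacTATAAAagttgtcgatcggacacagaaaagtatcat
Ccp84Aa, chr3R:6704024-6704088, + strand: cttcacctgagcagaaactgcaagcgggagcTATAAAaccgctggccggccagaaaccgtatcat
Ccp84Af, chr3R:6690235-6690299, - strand: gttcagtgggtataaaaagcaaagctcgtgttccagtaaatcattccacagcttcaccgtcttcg
Ccp84Ad, chr3R:6692672-6692736, + strand: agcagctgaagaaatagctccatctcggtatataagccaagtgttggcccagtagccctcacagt

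The same box stands in genes outside that run, shown for the pupal cuticle gene Pcp, the adult cuticle gene Acp65Aa, and the ecdysone-dependent gene Edg78E and TwdlT, with capitals as before. Of these 4, Edg78E and TwdlT had a weak relaxed pooled peak and the others none.
Pcp, chr2L:7021622-7021686, + strand: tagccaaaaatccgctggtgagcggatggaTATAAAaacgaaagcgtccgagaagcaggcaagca
Acp65Aa, chr3L:6152741-6152805, - strand: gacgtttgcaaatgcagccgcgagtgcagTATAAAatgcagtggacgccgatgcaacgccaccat
Edg78E, chr3L:21297799-21297863, - strand: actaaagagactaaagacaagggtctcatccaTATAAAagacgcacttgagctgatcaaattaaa
TwdlT, chr3R:27049160-27049224, + strand: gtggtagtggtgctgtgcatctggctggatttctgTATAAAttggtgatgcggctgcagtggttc

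Other words were searched on both strands from 250 bases before to 50 after the outermost start. TATAAA anywhere in that window was present at 92 of 122 (75.4%) against 45.5% of the other genes. TATCGATA, the DNA replication-related element of housekeeping promoters, was present at 1 gene (0.820%) against 9.43%, and GGTCACAC, the core of a housekeeping promoter word called Motif 1, at 0 of 122, which allows a share of up to 2.46% when the limit is set at 3 counts of the total (Wilson upper limit 3.05%), against 7.77%. CACGTG was present at 3 of 122 (2.46%, 0.840% to 6.98%) against 4.22% (3.90% to 4.57%), which overlap. TCAGT, the initiator core, at 52.5% and 51.5%, and GAGAG, a word bound by the Trithorax-like protein, at 30.3% and 29.7%, were about as frequent in both groups. Such short words are common in a window of this length. TCAGT was not searched in place at the start, so its shares cannot show whether initiators differ. AACCGGTT, a palindrome bound by Grainyhead (an epidermal regulator), was at 0 of 122 against 0.760%. For this 0 the limit of 3 counts of the total is 2.46% (Wilson upper limit 3.05%), above the share of the other genes.

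**Figure D5:**
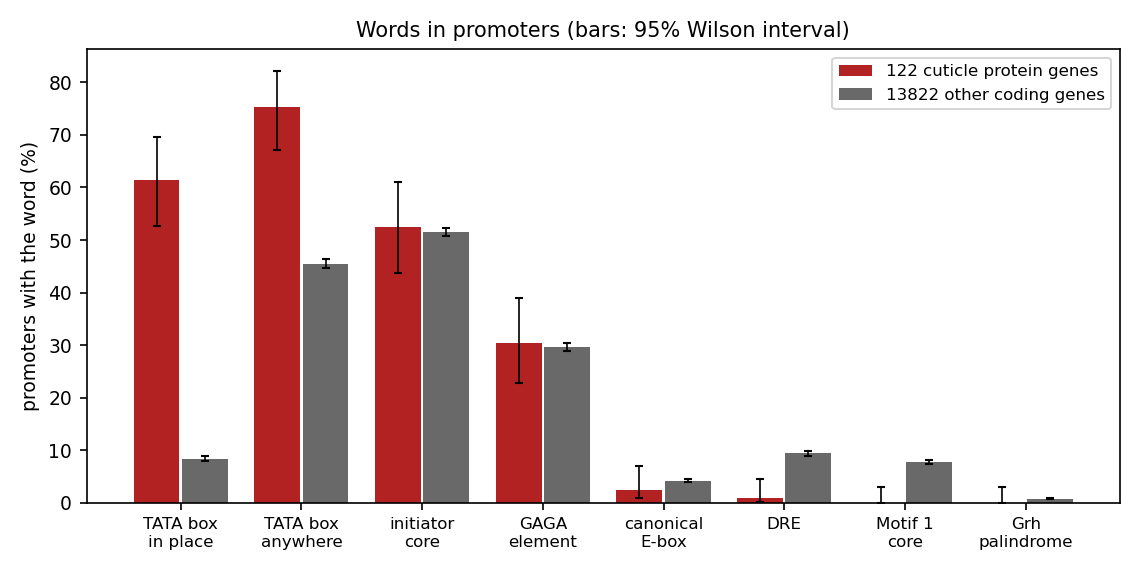
Share of promoters (%) with each word, for 122 cuticle protein genes and 13822 other coding genes (bars with 95% Wilson intervals). The TATA box in place, counted as the exact word TATAAA, stands at 61.5% against 8.35%. The words DRE and Motif 1, typical of housekeeping promoters, are at 0.820% and 0 against 9.43% and 7.77%.

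The kind of promoter also went with Myc peaks among the other genes. Other genes with TATAAA in place had a strict peak in 76 of 1154 cases (6.59%, 5.29% to 8.17%), those without it in 27.95% (27.2% to 28.7%), and those with TATCGATA or GGTCACAC in 49.4% (47.3% to 51.4%). The cuticle protein genes with TATAAA in place had one at 0 of 75, for which 3 counts of the total allow a share of up to 4% (Wilson upper limit 4.87%), and those without it at 1 of 47 (2.13%, 0.377% to 11.1%). In the relaxed pooled list the shares were 8 of 75 (10.7%, 5.50% to 19.7%) and 8 of 47 (17.0%, 8.89% to 30.1%), beside 23.9% (21.5% to 26.5%) and 57.1% (56.2% to 58.0%) in the other genes. The cuticle genes are also short and mostly have a single start: 111 of 122 have 1 annotated start (91.0%, against 73.3%), and their median length is 954.5 bp (against 2182). Among genes with 1 start, 1 of 111 (0.901%) had a strict peak against 21.3% of the others, and 14 of 111 (12.6%) a relaxed one against 46.7%. The parts played by promoter type and number of starts in the counts were not tested.

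Summit windows of 3 weak peaks are shown next, since they are the E-box case and both peaks of highest signal. Each line holds the 50 bases before and after the pooled summit on the plus strand of dm6. CACGTG is in capitals in Edg78E, the single case among the 15 weak summits with the word in this window, and it lies in the coding exon of that gene. Cpr67B and Ccp84Ag, with the strongest weak peaks, hold no CACGTG. Over the relaxed pooled list 3.09% of summits held it and over the strict list 6.02%.
Edg78E summit, chr3L:21297431-21297531, + strand: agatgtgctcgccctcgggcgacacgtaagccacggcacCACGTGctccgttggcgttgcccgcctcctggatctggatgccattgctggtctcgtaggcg
Ccp84Ag summit, chr3R:6686469-6686569, + strand: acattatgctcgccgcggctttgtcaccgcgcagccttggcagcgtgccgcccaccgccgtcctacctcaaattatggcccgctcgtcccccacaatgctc
Cpr67B summit, chr3L:9404598-9404698, + strand: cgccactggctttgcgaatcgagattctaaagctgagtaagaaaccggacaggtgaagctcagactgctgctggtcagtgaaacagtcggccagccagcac

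Near copies limit what such lists can show. The share of 31-base words in the 1000 bp around the start that occur elsewhere on the main arms was above 10% for 15 of 122 genes (12.3%, against 4.12% of the other genes). It was 90.4% for Lcp65Ab1 and Lcp65Ab2, 76.4% for Cpr65Ax1 and 72.1% for Cpr65Ax2. Neither the read length nor the treatment of reads with several matches is known here, so for these 4 genes an absent peak is uncertain. The other 107 of 122 genes are at or below 10%.

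Other genes of cuticle formation were examined by lists chosen by name. Of 70 matched genes, 8 had a strict promoter peak (11.4%, 5.91% to 21.0%) and 40 a relaxed one (57.1%, 45.5% to 68.1%), where 26% and 54% of all protein-coding genes had one, so the relaxed share was near that of all genes. All 8 strict peaks had a summit within 100 bp in each relaxed replicate list, and 3 of them, at Cht11, usp and Eip75B, were among the strongest 4371 peaks of every replicate. In chitin synthesis, 2 of 9 had a strict peak, a share of 22.2% and near that of all genes: mmy, which makes the sugar nucleotide for chitin (signal 147, with 56.9, 60.5 and 38.4 in replicates 1, 2 and 3, 185 bp after its start), and Gfat2, which supplies its precursor (130, with 58.3, 42.7 and 26.6, 39 bp before). The chitin synthase genes kkv and Chs2 had weak relaxed peaks of 38.7 and 50.8. In chitin modification and turnover it was 2 of 15 (13.3%, 3.74% to 37.9%), the chitinase genes Cht7 (147, with 39.6, 39.4 and 66.9) and Cht11 (175, with 53.996, 50.7 and 78.0).

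Among regulators of moulting, 3 of 13 had a strict peak (23.1%, 8.18% to 50.3%, beside 26% of all protein-coding genes) and all 13 had a relaxed one (77.2% to 100%, beside 54%). Eip75B, an ecdysone-induced nuclear receptor gene, had the highest signal of the lists, 495, with 172, 167 and 182 in replicates 1, 2 and 3. The gene usp, which codes for the partner of the ecdysone receptor, had 177 (57.6, 61.4 and 63.4), and crc, which codes for a bZIP transcription factor, 169 (50.6, 79.9 and 38.2). The ecdysone receptor gene EcR and the epidermal regulator grh had relaxed peaks of 101 and 95.8, below the strict list's weakest. Other structural genes of the cuticle and apical matrix had a strict peak in 1 of 18 cases (tyn, 118, with 28.8, 28.8 and 65.3). The tanning and pigmentation genes had none in 9, for which 3 counts of the total allow a share of up to 33.3% (Wilson upper limit 29.9%), and the genes of ecdysone synthesis none in 6, for which it is 50% (39.0%). Both limits lie above the 26% of all protein-coding genes.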

How the data were processed

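Peak lists for dm6 were used: 1 relaxed list per replicate, 1 for the pooled replicates and 1 thresholded by IDR. The signal of a peak is a score that the authors deposited in each list. No result given here uses the −log10 q value deposited by the authors. No source used here gives the read length, the aligner, the caller of the peaks, the threshold of the IDR or how signal was scaled. No read counts were used, so Wilson intervals (95%) cover counting error over genes only. For a count of 0, the limit of 3 counts of the total is given with the Wilson limit. Controls were not analysed here. The dm3 lists were not used.

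Starts came from Ensembl release 115 (BDGP6, annotation 6.54) and bases from the RefSeq dm6 genome. The promoter window took in 500 bp to either side of all starts, and a summit shared between lists lay within 100 bp. Clusters were joined at gaps up to 20 kb, with 500 bp added each side. No test between gene groups was made: groups are described by counts, medians, Wilson intervals and the SD over replicates. Pseudogenes were left out, and phm matched no gene. Scripts ran in Python 3.11.15 with numpy 2.4.6, pandas 2.3.3, scipy 1.17.1 and matplotlib 3.10.9, and the assignment of summits was tested on simulated data. The members and lists were chosen with earlier results of these data known.

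Genes were named by rule: all members with a strict or relaxed pooled promoter peak, the 5 other members nearest a strict summit, the ends of the larger clusters, 10 members by name, the nearest gene at each such peak, and pathway genes with a strict peak. Genes named beyond it (the near copies of the 65A run, the smaller clusters, the neighbours, kkv, Chs2, EcR and grh) were chosen after their values were seen. The neighbour counts, density bands, TATA box in place and 1-start counts were added after seeing the data.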

Additional observations from a re-analysis of the deposited data

How the results depend on the processing

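No paired analysis was possible because there is 1 group and no test between groups. Strict promoter peaks were found at 2 genes, Cpr and Lcp9, beside 26.2% of the other genes. A window of 250 bp (22.5% of the other genes) and giving each summit to the nearest start only (19.8%) each left 1, the reductase gene Cpr. Neither setting thus left a cuticle protein gene. Leaving out Cpr (26.2%) left 1, Lcp9. A window of 1000 bp (29.2%), the outermost start only (24.2%), peaks above the list's median signal (15.4%) and any overlap (27.6%) gave 2. So did the counts without 1 replicate (2 to 2, beside 17.6% to 19.2% of the other genes). The relaxed pooled count (17, beside 54.3% of the other genes) was 8 with 250 bp (45.9%), 33 with 1000 bp (61.4%), 4 with peaks above the list's median signal (44.4%), and 5 to 6 (37.0% to 39.2%) without 1 replicate, where a summit was required within 100 bp in both other lists. It was 16 with the nearest start (46.8%), 17 with the outermost start (51.8%), 24 with any overlap (58.2%) and 16 without Cpr (54.3%). Clusters with a strict summit (1) became 5 with 5000 bp added each side, 0 with peaks above the median signal, and 0 to 1 without 1 replicate (0 without replicate 1 or 3). Clusters with a relaxed summit (12) became 5 with peaks above the median signal. The median distance to a strict summit over all 123 genes (20237 bp) became 32786 bp with peaks above the median signal. Pathway genes with a strict peak (8 of 70) became 2 with peaks above the median signal, where the other genes stood at 15.4%. The causes were not tested. Unknown depth limits what an absent peak shows.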

Other observations

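Chemosensory genes, another large set of short genes with restricted expression, were set beside the cuticle protein genes by counts. A strict promoter peak was found at 4 of 230 (1.74%, 95% Wilson interval 0.678% to 4.39%) and a relaxed pooled one at 21 of 230 (9.13%, 6.05% to 13.6%), where 26% and 54% of all protein-coding genes had one. Their median distance to a strict summit was 14586.5 bp, beside 20475 bp for the cuticle protein genes. The intervals of both gene sets overlap in both lists, and the difference between the sets was not tested.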
